A study of Mus musculus with 6 samples.

Results

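The genes that encode succinate dehydrogenase (complex II), the cytochrome bc1 complex (complex III), cytochrome c, cytochrome c oxidase (complex IV) and ATP synthase (complex V), with assembly genes named Uqcc or *Cox10* to *Cox19*, were examined in the fasted liver of mice without hepatocyte *Pak4*. Members were chosen by symbol and by the protein-coding class in the deposited table, a rule that uses no expression value but was set with earlier results of these data known. This gave 66 of 45777 genes, 60 of them in the nuclear genome and 6 (*CYTB*, *COX1*, *COX2*, *COX3*, *ATP6* and *ATP8*) in the mitochondrial genome. There were 4 members in complex II, 10 in complex III, 1 for cytochrome c, 21 in complex IV, 19 in complex V and 11 assembly genes. RNA had been sequenced from the livers of C57BL/6 males, 8 weeks of age and fasted for 24 h, with 1 library from each of 3 WT animals (genotype *Pak4* flox/flox) and 3 LKO animals (genotype Alb-Cre; *Pak4* flox/flox). All 6 mice carried the floxed *Pak4* alleles, so the groups differ in the Cre transgene, which the albumin promoter drives in hepatocytes, whereas the RNA came from whole liver. Fed mice were not analysed here, so the values describe the fasted state alone.

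These complexes pass electrons from succinate, ubiquinol and cytochrome c to oxygen and use the resulting proton gradient to make ATP. Their catalytic centres lie in a few large subunits, some of which are encoded by mitochondrial DNA in complexes III and IV. Many small subunits, most of them nuclear, surround the centres. Complex II has no mitochondrially encoded subunit and also works as an enzyme of the citric acid cycle. In the fasted liver they take up electrons released by fatty acid oxidation and supply ATP to gluconeogenesis.

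Total counts were 45934632 to 59576437 per library. *Pak4* had 268, 210 and 271 read counts in the WT group against 85, 52 and 149 in the LKO group. Its log2 fold change (LKO over WT) was −0.71 (SE 0.31, adjusted p = 0.10; −1.08 and 0.0152 without LKO mouse 3) with edgeR's TMM scaling and −1.54 (adjusted p = 0.0056) with scaling to total counts, both from the quasi-likelihood test of edgeR, adjusted by Benjamini-Hochberg over 18636 genes. This test and adjustment gave the adjusted p values that follow, except those on a log2(TPM) scale, which are from limma, and those given with another tool's name. A member was called at an adjusted p under 0.05, and per-mouse levels are CPM (counts scaled to a common library size) after TMM. The 2 scalings differed because the TMM factors were 1.28 to 1.43 in WT and 0.639 to 0.816 in LKO mice, and the median log2 fold change of all genes tested was −0.04 with TMM and −0.90 with total counts. The small RNAs 7SL and 7SK took 5.05% to 5.84% of the counts in the WT and 13.8% to 18.2% in the LKO group, and their part in the difference between scalings was not tested. Summed CPM of 8 hepatocyte markers was 31940 to 36790 in WT and 85820 to 104800 in LKO mice. Of these 8, *Alb*, *Cps1* and *Apoa1* were called higher, *Ttr* was called lower and 4 were not called, and *Alb* made up most of the sum (a mean of 21080 CPM in WT and 69390 in LKO mice). The sum of 6 stellate cell markers was 215 to 251 and 547 to 811, that of 6 sinusoidal endothelial markers was 334 to 393 and 601 to 656, and that of 5 red cell markers was 192 to 324 and 879 to 1634. *Dcn*, at a mean of 116 CPM in WT and 505 in LKO mice, carried most of the stellate rise. *Dcn* and *Lrat* were called higher, while *Reln*, *Pdgfrb*, *Des* and *Col1a1* were not called, and *Col1a1* was lower in LKO mice. Of the endothelial markers 4 were called higher and 0 lower, and of the red cell markers 2 and 1 (19.6% and 20.5% of all genes tested). Macrophage markers (7 genes) summed to 271 to 413 in WT and 438 to 849.8 in LKO mice, bile duct markers (5 genes) to 32.9 to 50.2 and 13.7 to 30.2 (*Spp1*, called lower, made up most of this sum, and no other bile duct marker was called), and lymphocyte markers (5 genes) to 1.95 to 3.15 and 1.06 to 2.73. Of the macrophage markers, *Clec4f*, *Vsig4* and *Marco* were called higher, *Cd68* was called lower, and *Adgre1*, *Cd5l* and *Csf1r* were not called. The part of these cell types in the results for the members was not tested. Of 6 striated muscle markers, *Acta1*, *Myh1*, *Actn2* and *Mb* were at 0 counts in all 6 libraries. In bulk liver, fewer cells of a type and less RNA per cell cannot be told apart.

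With TMM scaling, most nuclear transcripts tested of complexes III and V and 6 of 12 of complex IV were called higher in LKO liver, while those of complex II and of the assembly genes were split. Of the 66 members, 60 had at most 1 zero count and were tested, and all of these had counts in every mouse. Of these, 30 were called higher in LKO mice, where 19.6% of all genes tested were called higher, and 5 were called lower, where 20.5% of all genes were. The 5 lower members were *Sdha*, *Cox6a1*, *Cox7a1*, *Cox15* and *Cox18*, and their number was 2 without WT mouse 1 or LKO mouse 2 and 3 without WT mouse 3 or LKO mouse 3. Every LKO value lay above every WT value for 35 members (26.1% of all genes tested) and below for 6 (27.9% of all genes tested). The median log2 fold change was 0.61 for the 54 nuclear members tested and 0.68 for the 6 mitochondrially encoded members, against −0.04 for all genes tested.

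**Figure D1:**
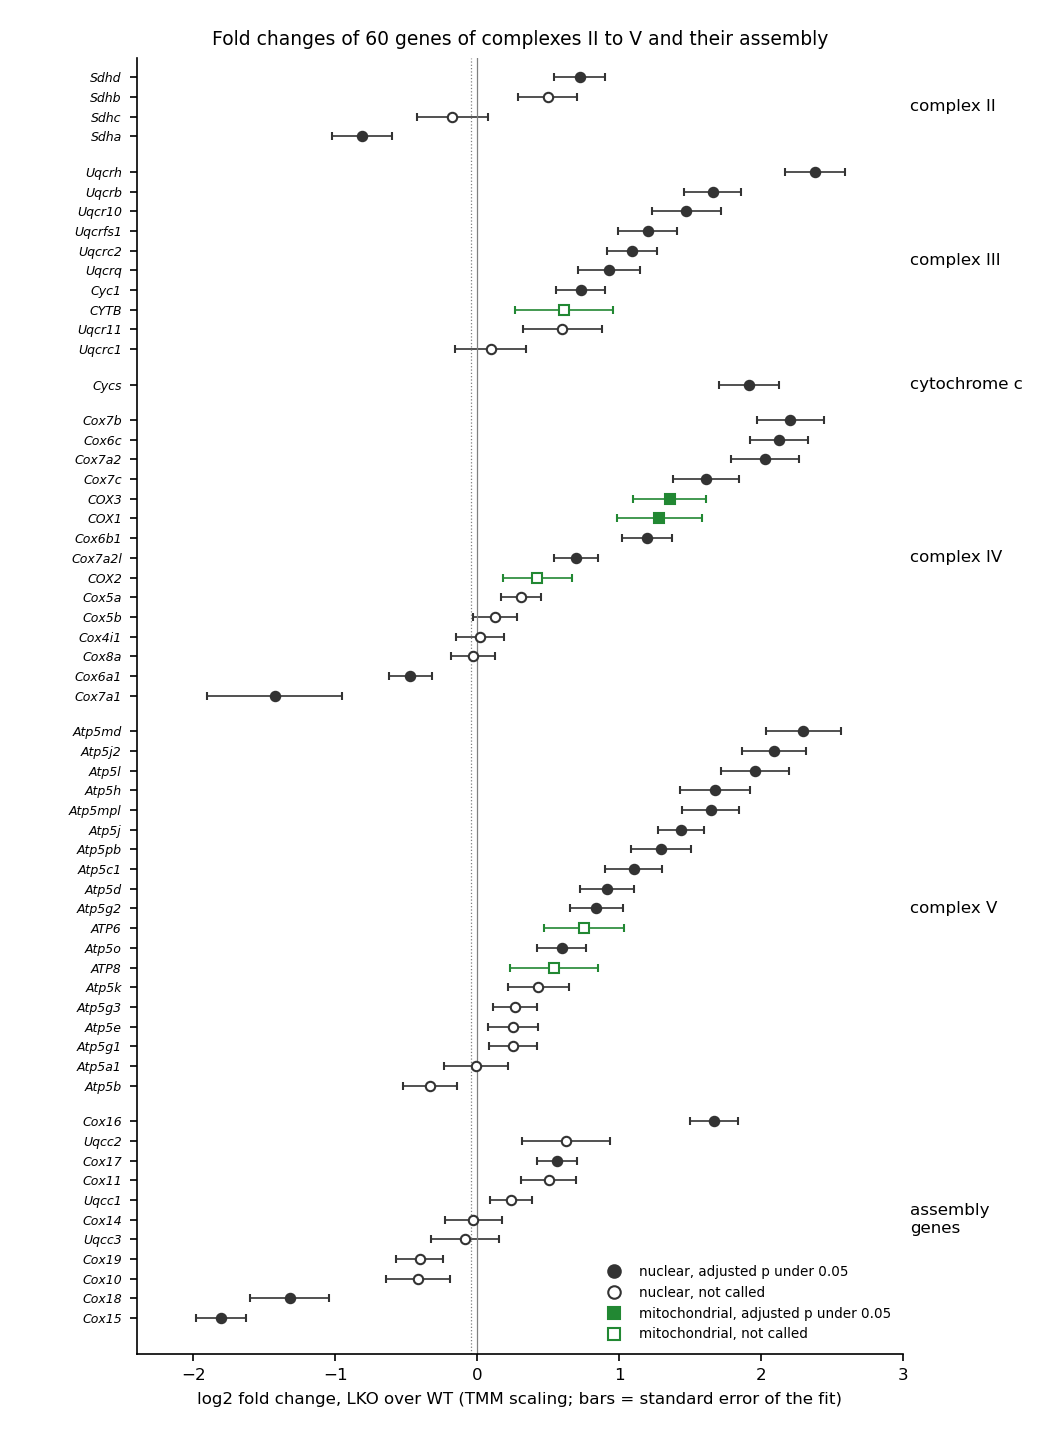
Log2 fold change (LKO over WT, 3 mice each, TMM scaling) of the 60 members tested, grouped by complex and sorted within it, with bars for the standard error of the fit, filled symbols for an adjusted p under 0.05 and the dotted line at the median of all genes tested (−0.04). Values run from −1.81 for *Cox15* to 2.38 for *Uqcrh*, and with total counts the median of the nuclear members was −0.28 and that of the mitochondrially encoded members −0.18, so directions hold for TMM scaling.

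The direction of the median depended on how libraries were scaled. With total counts, 15 members were called higher (6.26% of all genes) and 21 lower (51.4% of all genes), and the median of the nuclear members turned to −0.28. Relative to the median of all genes, the nuclear members stood at 0.65 with TMM and at 0.62 with total counts. With offsets for gene length these values were 28 higher (19.4% of all genes), 11 lower (19.5% of all genes) and 0.30 relative to all genes. On the log2(TPM + 1) scale the nuclear members lay at −0.11 relative to all genes, and at 0.38 with a pseudocount of 0.1.

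**Figure D2:**
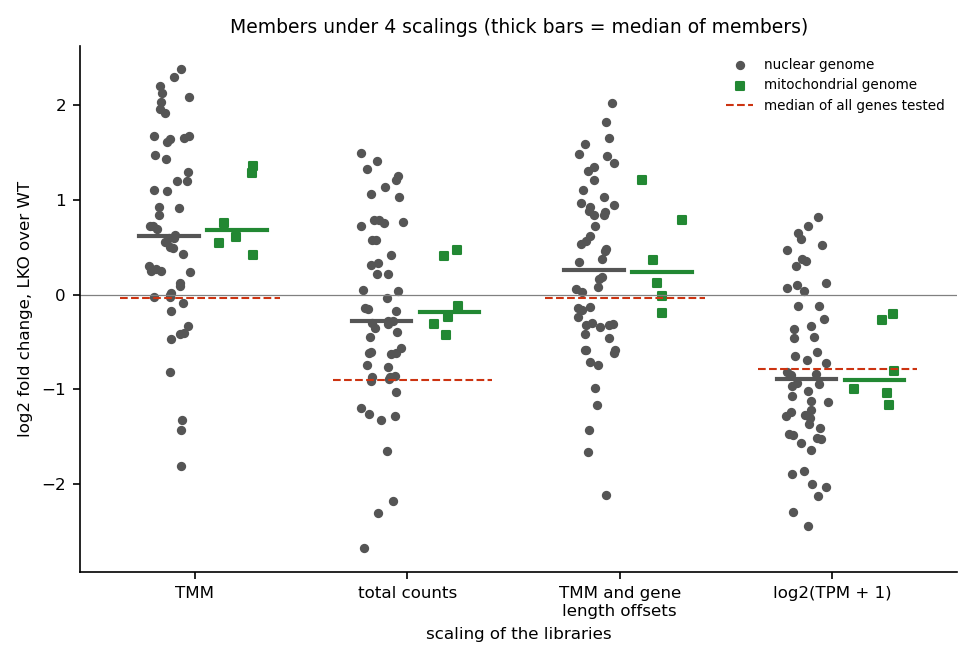
Log2 fold change of each member (points; nuclear in grey, mitochondrially encoded in green) under 4 scalings of the libraries, with thick bars for the median of the members and dashed lines for the median of all genes tested. The whole set shifts with the scaling, and the nuclear median lies above the dashed line under TMM, total counts and gene length offsets and below it for log2(TPM + 1).

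Under 6 scalings (TMM, total counts, DESeq2 size factors, upper quartile, gene length offsets and log2(TPM + 1)), 9 members passed as higher each time, against 2.36% of all genes. With log2(TPM + 0.1) as a further setting 6 of the 9 passed (2.26% of all genes), since *Cycs* (adjusted p = 0.0547), *Atp5l* (0.0537) and *Cox16* (0.0665) were lost. Of the 30 members called higher with TMM, 15 were called higher with total counts and 6 turned negative, while on the log2(TPM + 1) scale 9 were called higher, 17 turned negative and 11 of these were called lower. The 9 members that passed under the 6 scalings were *Uqcrh* of complex III, *Cycs*, *Cox6c*, *Cox7a2* and *Cox7b* of complex IV, *Atp5l*, *Atp5j2* and *Atp5md* of complex V, and the assembly gene *Cox16*. Lower each time, also with log2(TPM + 0.1), were 3 members, *Sdha*, *Cox15* and *Cox18*, against 16.9% of all genes. No mitochondrially encoded member kept 1 direction under all 6. Within 1 mouse the ratio of 2 transcripts does not depend on the scaling between libraries. Such ratios of TPM (a level per transcript length) are given with no test. The pairs were not set in advance. Several put a member with a large rise over one that did not rise (*Uqcrh* over *Uqcrc1*, *Cox6c* over *Cox6a1*, *Atp5md* over *Atp5b*). The choice itself thus favoured groups without overlap, and no rate of overlap over other gene pairs was computed. Where the 2 genes differ in length, the ratios still carry the trend of fold change with gene length that is given below. The shorter gene was the numerator in some pairs (*Atp5md* over *Atp5b*) and the denominator in others (*Cycs* over *Cyc1*). The part of gene length in the ratios was not tested.

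With TMM, complex II was split within itself. *Sdha* encodes the flavoprotein that oxidises succinate, *Sdhb* the iron-sulfur subunit, and *Sdhc* and *Sdhd* the membrane anchors. *Sdha* was at 311, 189.6 and 294 CPM in WT and 161, 137 and 155 in LKO mice, and the groups did not overlap. It fell by 0.81 on the log2 scale (SE 0.21, adjusted p = 0.016, edgeR). The call was lost without WT mouse 1 (adjusted p = 0.070), WT mouse 3 (0.068) or LKO mouse 2 (0.057). *Sdhd* was at 176, 128 and 160.2 CPM in WT and 270.2, 274 and 220.0 in LKO mice, all LKO values above the WT values, and rose by 0.72 (SE 0.18, adjusted p = 0.014) with TMM, a direction that turned to −0.14 with total counts. Without WT mouse 2 or WT mouse 3 its adjusted p was 0.054 and 0.052. *Sdhb* had a log2 fold change of 0.50 (adjusted p = 0.090; 0.039 without LKO mouse 3) and *Sdhc* of −0.18 (adjusted p = 0.61), neither of them called. On the log2(TPM + 1) scale *Sdhd* was called lower (−0.814, adjusted p = 0.0028). So were *Sdha* (−2.295, 1.9e-04), *Sdhb* (−1.066, 3.4e-04) and *Sdhc* (−1.64, 8.6e-04), where the median of all genes tested was −0.787.

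The ratio of anchor to flavoprotein transcript separated the genotypes. The TPM of *Sdhd* over that of *Sdha* was 1.26, 1.50 and 1.21 in WT and 3.73, 4.46 and 3.17 in LKO mice, a mean of 1.32 ± 0.153 against 3.78 ± 0.650 (mean ± SD over 3 mice). *Sdhb* over *Sdha* was 1.16 to 1.54 in WT and 2.46 to 4.47 in LKO mice, and *Sdhc* over *Sdha* was 0.435 to 0.554 and 0.607 to 0.884. For these 3 ratios the groups did not overlap, so *Sdha* transcript was lower relative to each of its partners. *Sdha* had the largest relative length of these genes. With gene length offsets the log2 fold change was −0.707 for *Sdha*, 0.538 for *Sdhd*, 0.166 for *Sdhb* and −0.418 for *Sdhc*.

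The 250 bases before the start sites of *Sdha* and *Sdhd* are shown because these genes moved in opposite directions with TMM while both windows hold the NRF1 letters. NRF1 and the ETS-family factor GABP are known regulators of nuclear respiratory genes. They come from RefSeq on GRCm38.p6, both on the minus strand, at chr13:74350241-74350490 for *Sdha* and chr9:50603850-50604099 for *Sdhd*. Capitals mark matches, on either strand, to GCGCANGCGC (the core of NRF1 sites) or to CCGGAAG (an ETS core).
Sdha: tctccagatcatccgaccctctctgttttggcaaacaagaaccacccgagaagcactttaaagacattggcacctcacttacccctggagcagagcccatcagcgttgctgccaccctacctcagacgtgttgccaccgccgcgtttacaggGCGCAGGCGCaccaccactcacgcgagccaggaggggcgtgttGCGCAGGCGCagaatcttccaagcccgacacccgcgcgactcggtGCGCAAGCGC
Sdhd: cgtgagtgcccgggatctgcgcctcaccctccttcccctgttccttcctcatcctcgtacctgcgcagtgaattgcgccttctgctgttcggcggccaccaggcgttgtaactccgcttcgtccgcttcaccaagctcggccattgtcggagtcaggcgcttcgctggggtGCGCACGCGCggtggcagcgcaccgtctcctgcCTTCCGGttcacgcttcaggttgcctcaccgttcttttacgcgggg
*Sdha* held the NRF1 letters 3 times, beginning 98, 55 and 10 bases before the start site, and *Sdhd* held them once, 79 bases before it, with the ETS letters 46 bases before it.

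Of the 9 nuclear members of complex III, 7 were called higher and 0 lower with TMM (19.6% and 20.5% of all genes), with a median log2 fold change of 1.09. With total counts 3 were called higher and 1 lower (6.26% and 51.4% of all genes), with a median of 0.22. *Uqcrh* encodes the hinge protein that stands beside cytochrome c1, and it had the largest rise of all 60 members tested. Its level was 109, 90.4 and 116 CPM in WT and 451, 672 and 518 in LKO mice, a rise of 2.38 (SE 0.21, adjusted p = 2.6e-04) that kept its direction and its call under the 6 scalings. *Uqcrb*, a small subunit at the quinone site, rose by 1.66 (adjusted p = 5.9e-04), from 77.0 to 112 CPM in WT to 274.5 to 359 in LKO mice. *Uqcr10*, another small subunit, rose by 1.47 (adjusted p = 0.0022), from 60.3 to 77.1 CPM in WT to 145 to 269 in LKO mice. On the log2(TPM + 1) scale neither was called, at 0.12 for *Uqcrb* (adjusted p = 0.50) and −0.12 for *Uqcr10* (adjusted p = 0.511). The pseudogene *Gm12854* overlaps *Uqcrh* and *Gm51883* overlaps *Uqcr10* in RefSeq, and since the use of strand in counting is not stated, reads of such pairs cannot be separated.

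The redox subunits and core proteins of complex III had log2 fold changes of 0.10 to 1.20. *Cyc1*, which encodes cytochrome c1, was at 45.9, 35.6 and 45.6 CPM in WT and 62.2, 82.6 and 65.8 in LKO mice and rose by 0.73 (SE 0.17, adjusted p = 0.011) with TMM, turning to −0.15 with total counts. On the log2(TPM + 1) scale *Cyc1* was called lower (−0.723, adjusted p = 0.0046). *Uqcrfs1* (the Rieske protein), the core protein gene *Uqcrc2* and the small subunit gene *Uqcrq* were also called higher with TMM, at 0.93 to 1.20. With total counts these 3 were not called (0.33, 0.22 and 0.042, adjusted p = 0.157, 0.254 and 0.867), and on the log2(TPM + 1) scale they turned to −0.33, −0.45 and −0.65, with *Uqcrc2* and *Uqcrq* called lower (adjusted p = 0.0122 and 0.00559). *Uqcrc1*, the other core protein gene, did not pass, at 118, 56.0 and 94.7 CPM in WT and 88.3, 95.2 and 103 in LKO mice (log2 fold change 0.10, SE 0.25, adjusted p = 0.79). Its WT mice spread more widely than its LKO mice, and the groups overlapped. *Uqcr11* did not pass either (0.60, adjusted p = 0.12). The TPM of *Uqcrh* over *Uqcrc1* was 2.81, 4.89 and 3.72 in WT and 15.5, 21.4 and 15.2 in LKO mice, and that of *Uqcrc2* over *Uqcrc1* was 1.46 to 2.48 and 2.90 to 4.11, without overlap in either case.

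The upstream window of *Uqcrh*, the member with the largest rise, lies at chr4:116075071-116075320 on the minus strand of GRCm38.p6. It held the ETS letters on the opposite strand, 10 bases before the start site, and no NRF1 letters.
Uqcrh: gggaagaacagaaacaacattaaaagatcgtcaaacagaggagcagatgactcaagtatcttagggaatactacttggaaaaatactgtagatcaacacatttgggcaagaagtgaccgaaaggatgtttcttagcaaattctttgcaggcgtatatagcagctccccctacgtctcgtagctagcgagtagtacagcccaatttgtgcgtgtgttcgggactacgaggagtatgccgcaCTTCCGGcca

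Cytochrome c, the soluble carrier between complexes III and IV, followed the members with large rises. *Cycs* was at 149.6, 108 and 125 CPM in WT and 422, 589 and 427 in LKO mice. It rose by 1.91 (SE 0.21, adjusted p = 4.4e-04) and kept its call under the 6 scalings, but not with log2(TPM + 0.1). *Cycs* had a relative length of 3565 bases, so it was among the longer members. Its TPM over that of *Cyc1* was 1.39 ± 0.0705 in WT and 3.00 ± 0.384 in LKO mice (mean ± SD over 3 mice), without overlap.

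**Figure D3:**
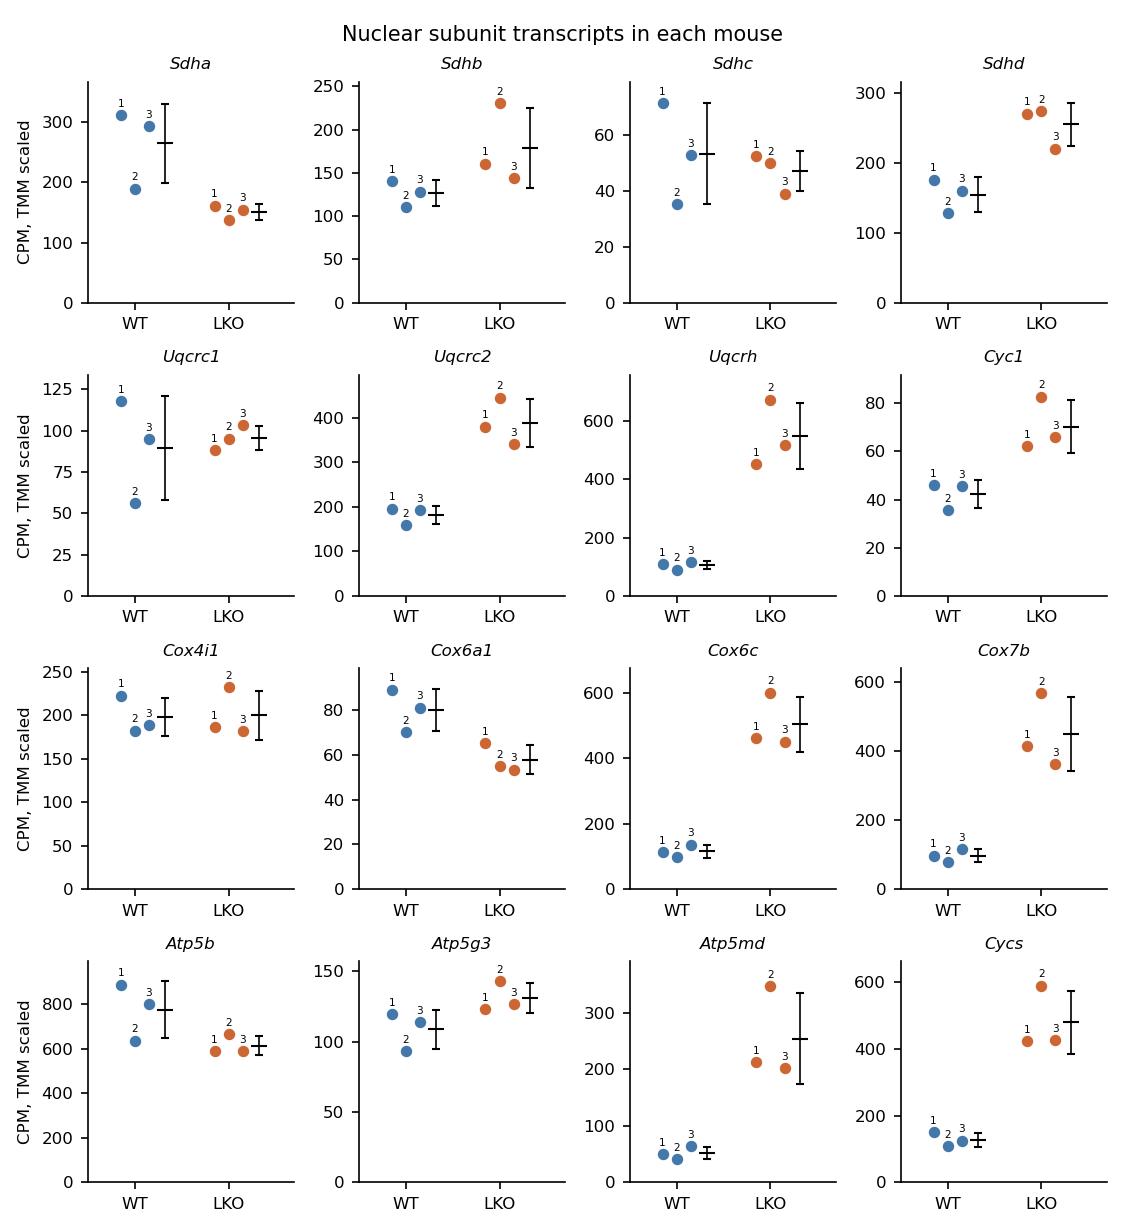
CPM after TMM scaling of 16 nuclear members in each of 3 WT (blue) and 3 LKO (orange) mice, numbered by mouse, with the mean and SD beside the points. *Uqcrh*, *Cox6c*, *Cox7b*, *Atp5md* and *Cycs* separate widely between genotypes, while *Uqcrc1*, *Cox4i1*, *Sdhc* and *Atp5b* overlap. With total counts *Sdhd* and *Cyc1* turn to lower values in LKO mice.

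In complex IV, 6 of the 12 nuclear subunit genes tested were called higher and 2 lower with TMM (19.6% and 20.5% of all genes), with a range of −1.43 to 2.21. With total counts 4 were higher and 6 lower (6.26% and 51.4% of all genes). *Cox7b*, *Cox6c* and *Cox7a2* encode small subunits around the catalytic core and rose most. *Cox7b* was at 96.9, 78.2 and 116 CPM in WT and 414, 569 and 363 in LKO mice (2.21, SE 0.24, adjusted p = 4.0e-04). *Cox6c* was at 113, 96.9 and 135 CPM in WT and 460.3, 599.6 and 450.2 in LKO mice (2.13, SE 0.20, adjusted p = 3.2e-04). *Cox7a2* was at 106.5, 85.6 and 114 CPM in WT and 330.5, 555.5 and 363 in LKO mice (2.03, SE 0.24, adjusted p = 5.5e-04). LKO mouse 2 was the highest for all 3, and each kept its call under the 6 scalings. In RefSeq, *Tmem30a* and *Gm51685* overlap *Cox7a2*. *Cox7c*, *Cox6b1* and *Cox7a2l* were also called higher, at 1.61, 1.19 and 0.69. With total counts *Cox6b1* was no longer called (0.31, adjusted p = 0.10) and *Cox7a2l* turned to −0.18. On the log2(TPM + 1) scale *Cox6b1* (−0.358, adjusted p = 0.0442) and *Cox7a2l* (−0.851, 7.3e-04) were called lower.

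*Cox4i1*, the largest nuclear subunit of complex IV, did not pass, at 222, 182 and 188 CPM in WT and 187, 232 and 181 in LKO mice (0.02, SE 0.17, adjusted p = 0.94). With total counts it was called lower (−0.86, adjusted p = 0.0018), as it was with gene length offsets (−0.58, adjusted p = 0.012). *Cox5a* and *Cox5b* (0.31 and 0.12) and *Cox8a* (−0.03) were not called with TMM either. *Cox6a1* encodes the form of subunit 6a found in liver and was called lower. It was at 89.2, 70.3 and 81.1 CPM in WT and 65.3, 54.9 and 53.4 in LKO mice, without overlap, and fell by 0.47 (SE 0.15, adjusted p = 0.040). This call was lost with DESeq2 size factors (adjusted p = 0.059) and without WT mouse 1 (0.16), WT mouse 3 (0.12), LKO mouse 2 (0.10) or LKO mouse 3 (0.079). It was also lost with upper-quartile scaling (0.086), no filter on low counts (0.0545), filterByExpr (0.057), protein-coding genes alone (0.071), DESeq2 (0.053) and the replicate block (0.061). The call was kept with exactTest (0.042) and with at least 10 counts in every mouse (0.0415). With total counts the log2 fold change of *Cox6a1* was −1.32 (adjusted p = 6.1e-04).

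Ratios within complex IV, for pairs not set in advance, separated the groups in some cases and not in others. The TPM of *Cox6c* over *Cox6a1* was 1.43, 1.55 and 1.88 in WT and 7.95, 12.3 and 9.51 in LKO mice, a 6.12-fold higher mean. *Cox7b* over *Cox4i1* was 0.366 ± 0.0792 in WT and 1.65 ± 0.164 in LKO mice (mean ± SD over 3 mice). *Cox5b* over *Cox5a* was 2.48 to 2.85 in WT and 2.21 to 2.53 in LKO mice and overlapped.

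The upstream window of *Cox6a1*, the fallen isoform gene, lies at chr5:115348959-115349208 on the minus strand of GRCm38.p6 and is shown beside the windows above because it holds both kinds of letters. The NRF1 letters began 162 and 117 bases before the start site, and the ETS letters, on the opposite strand, 16 bases before it.
Cox6a1: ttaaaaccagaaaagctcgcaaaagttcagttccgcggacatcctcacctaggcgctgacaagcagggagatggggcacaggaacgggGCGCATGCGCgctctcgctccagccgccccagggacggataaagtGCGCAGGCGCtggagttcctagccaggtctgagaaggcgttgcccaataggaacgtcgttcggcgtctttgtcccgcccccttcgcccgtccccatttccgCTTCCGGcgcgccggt

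Several subunits of complex IV have isoform genes used in other tissues, and these were low or at 0 in the liver. Of the liver and heart pair for subunit 7a, *Cox7a2* (the widely expressed form) was at 249 ± 30.6 TPM in WT and 345 ± 45.6 TPM in LKO mice, and *Cox7a1* (heart and muscle) at 8.00 ± 3.78 and 0.980 ± 0.404 TPM (mean ± SD over 3 mice). *Cox7a1* had 172, 74 and 69 counts in WT and 30, 25 and 13 in LKO mice, with WT mouse 1 the highest. It fell by 1.43 (SE 0.47, adjusted p = 0.042). Without WT mouse 1 its log2 fold change was −0.96 (adjusted p = 0.16), and the call was also lost without any other mouse except WT mouse 3. *Elovl3*, a brown fat marker that the liver also expresses, was highest in WT mouse 1 as well, at 302 CPM against 10.1 to 81.0 in the other 5 mice, while *Ucp1*, which defines brown fat, was at 0 in the 3 WT mice and in LKO mice 1 and 2. *Cidea*, another brown fat marker, had 43, 16 and 31 counts in WT and 0, 0 and 0 in LKO mice. Over the 4 listed brown fat markers (*Cox8b* included) the summed level was 44.1 to 302.5 CPM in WT and 10.2 to 21.6 in LKO mice, and their part in the fall of *Cox7a1* was not tested. *Cox7a2l* rose by 0.69 with TMM as given above, but its TPM over that of *Cox7a2* went from 0.541 to 0.710 in WT to 0.191 to 0.301 in LKO mice.

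Of the 6 members that were not tested, *Cox6a2*, *Cox7b2* and *Cox8c* had 0 counts in all 6 libraries. *Cox6a2* is the heart and muscle partner of *Cox6a1*. *Cox4i2*, the lung isoform of *Cox4i1*, had 2 counts in WT mouse 3 and 0 elsewhere, and *Cox8b*, the muscle form of *Cox8a*, had 0 to 4 counts per library. *Cox6b2*, the testis form of *Cox6b1*, had 114, 62 and 32 counts in WT and 0, 0 and 0 in LKO mice. Against a floor of 3 counts per library it was at least 13.5-fold lower in LKO mice. Floors cover counting error only.

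Of the 17 nuclear members of complex V, 11 were called higher and 0 lower with TMM (19.6% and 20.5% of all genes), with a median of 0.92. With total counts 6 were called higher and 5 lower (6.26% and 51.4% of all genes), with a median of 0.047. The parts of the enzyme are described with TMM, in groups that were drawn after the values had been seen. In the F1 head, which makes ATP, 2 of 5 were called, *Atp5c1* (gamma, 1.10) and *Atp5d* (delta, 0.92). In the peripheral stalk, which holds the head still, 4 of 4 were called (*Atp5pb*, *Atp5h*, *Atp5j* and *Atp5o*, 0.60 to 1.68). In the c ring 1 of 3 was called, and among the small membrane subunits 4 of 5. With total counts 2 of the stalk genes and 4 of the small membrane subunits were called higher, and 3 genes of the head and 2 of the c ring were called lower.

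Among the small membrane subunits, *Atp5md*, *Atp5j2* and *Atp5l* had the largest log2 fold changes of complex V with TMM. *Atp5md* was at 50.1, 41.4 and 63.6 CPM in WT and 213, 347 and 202 in LKO mice, a 4.91-fold rise (SE 0.26 on the log2 scale, adjusted p = 5.0e-04). *Atp5j2* (subunit f) was at 90.3, 72.7 and 101 CPM in WT and 352.5, 478 and 295.5 in LKO mice (2.09, SE 0.23, adjusted p = 4.3e-04). *Atp5l* (subunit g) was at 100.9, 84.6 and 103 CPM in WT and 315, 509 and 297 in LKO mice (1.96, SE 0.24, adjusted p = 6.1e-04). All 3 kept their call under the 6 scalings, *Atp5l* losing it with log2(TPM + 0.1), and LKO mouse 2 was the highest for each. Subunits e, f, g and the product of *Atp5md* help ATP synthase to form dimers in the cristae. *Atp5mpl* rose by 1.65 (adjusted p = 6.1e-04), and *Atp5k* (subunit e) did not pass (0.43, adjusted p = 0.15). *Taf5* overlaps *Atp5md* and *Gm30934* overlaps *Atp5l* in RefSeq.

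The genes of the catalytic alpha and beta subunits did not pass with TMM. *Atp5b* (beta) was at 889, 637 and 802 CPM in WT and 591, 665.5 and 590.0 in LKO mice, with LKO mouse 2 within the WT range (−0.33, SE 0.19, adjusted p = 0.20). *Atp5a1* (alpha) was at 667, 389.6 and 554 CPM in WT and 552, 569 and 482 in LKO mice (−0.01, adjusted p = 0.98). With total counts both were called lower, at −1.20 and −0.87. The TPM of *Atp5md* over *Atp5b* was 0.291, 0.336 and 0.410 in WT and 1.87, 2.70 and 1.77 in LKO mice, so the mean was 6.10-fold higher. *Atp5md* is the shorter gene, and with gene length offsets the log2 fold change was 1.595 for *Atp5md* and −0.324 for *Atp5b*.

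The c ring is built from 1 mature protein encoded by *Atp5g1*, *Atp5g2* and *Atp5g3*. *Atp5g2* was at 52.0, 42.4 and 57.4 CPM in WT and 77.5, 110.3 and 83.8 in LKO mice and rose by 0.84 (adjusted p = 0.0083) with TMM, which turned to −0.04 with total counts and was not called with gene length offsets (0.19, adjusted p = 0.37). *Atp5g1* and *Atp5g3* did not pass with TMM (0.25 and 0.27, adjusted p = 0.27 and 0.21). On the log2(TPM + 1) scale the 3 genes were called lower, *Atp5g2* at −0.694 (adjusted p = 0.0016), *Atp5g1* at −1.279 (3.2e-04) and *Atp5g3* at −1.266 (2.4e-04). Of the summed TPM of the 3 genes, *Atp5g2* made up 22.3%, 24.2% and 26.1% in WT and 29.8%, 34.8% and 32.3% in LKO mice. The share of *Atp5g3*, the largest, was 48.0% ± 0.439 in WT and 43.0% ± 1.84 in LKO mice (mean ± SD over 3 mice).

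With TMM, the 6 mitochondrially encoded members fell into a pair that rose and 4 that did not pass. Of these 4, *ATP6* did pass under several alternatives, given below. *COX1*, the subunit that reduces oxygen, was at 9531, 8800 and 9778 CPM in WT and 19200, 25120 and 24060 in LKO mice and rose by 1.28 (SE 0.30, adjusted p = 0.010). *COX3* was at 2954, 2906 and 3006 CPM in WT and 6004, 8798 and 7871 in LKO mice and rose by 1.36 (SE 0.26, adjusted p = 0.0040). For both, every LKO mouse lay above every WT mouse. With total counts neither was called (0.41 and 0.47, adjusted p = 0.13 and 0.064), and on the log2(TPM + 1) scale the fold changes turned to −0.27 and −0.21.

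The other 4 overlapped between the genotypes. *COX2*, which takes electrons from cytochrome c, was at 643, 648 and 715 CPM in WT and 708.5, 755 and 1228 in LKO mice (0.42, SE 0.24, adjusted p = 0.20). *CYTB*, the quinone-binding subunit of complex III, was at 218, 343 and 369 CPM in WT and 313, 371 and 737 in LKO mice (0.61, SE 0.35, adjusted p = 0.20). *ATP6* had a log2 fold change of 0.75 (adjusted p = 0.063) and *ATP8* of 0.54 (adjusted p = 0.20). LKO mouse 3 was the highest of all 6 mice for these 4 genes. Without LKO mouse 3 the median of the 6 members was 0.33, and without LKO mouse 1 *ATP6* passed (0.96, adjusted p = 0.023). The call of *ATP6* was also made with exactTest (adjusted p = 0.033), DESeq2 (0.016), upper-quartile scaling (0.041) and the replicate block (0.026). It was made too with protein-coding genes alone (0.034), filterByExpr (0.046) and at least 10 counts in every mouse (0.044). The directions of the 4 genes turned to between −0.43 and −0.12 with total counts. On the log2(TPM + 1) scale *COX2* (−1.17, adjusted p = 0.0102), *ATP6* (−0.808, 0.046) and *ATP8* (−1.04, 0.0388) were called lower, and *CYTB* was not called (−0.999, 0.0597).

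**Figure D4:**
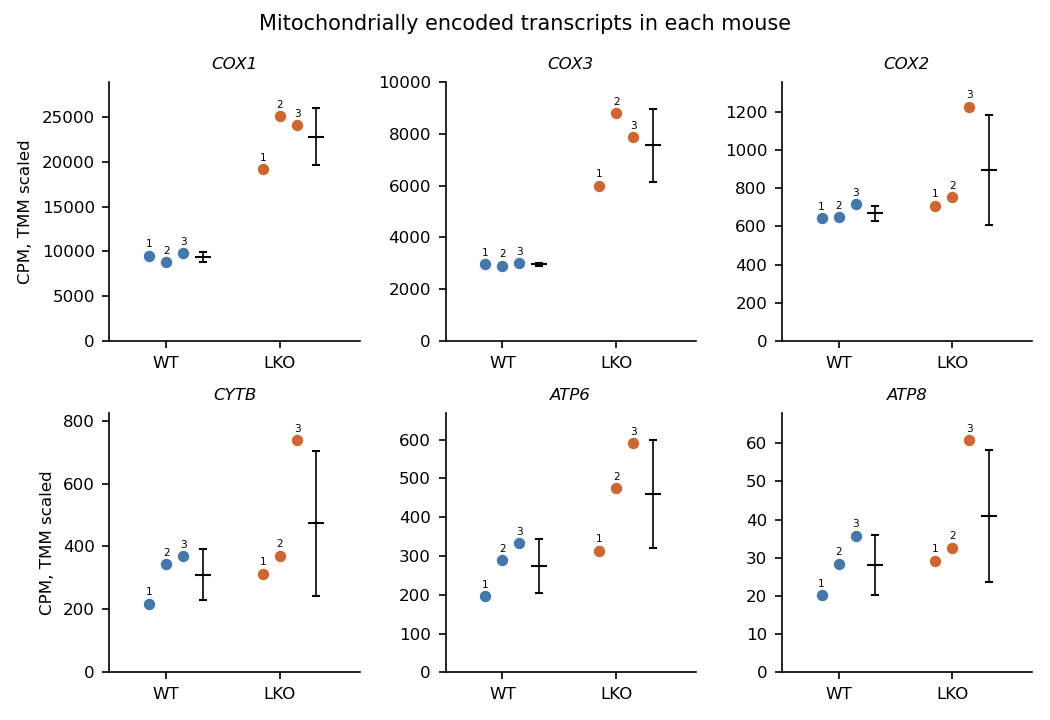
CPM after TMM scaling of the 6 mitochondrially encoded members in each of 3 WT (blue) and 3 LKO (orange) mice, numbered by mouse, with the mean and SD beside the points and axes from 0. *COX1* and *COX3* separate between genotypes, and for *COX2*, *CYTB*, *ATP6* and *ATP8* LKO mouse 3 stands above the other mice while the groups overlap. On the log2(TPM + 1) scale the 6 fold changes are negative.

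Levels within the mitochondrial genome were uneven in both genotypes. *COX1* took 1.25% to 1.29% of all counts in the WT and 1.57% to 1.87% in the LKO group, and *COX3* took 0.386% to 0.414% and 0.490% to 0.611%. The other 4 members together took 0.146% to 0.187% in WT and 0.104% to 0.203% in LKO mice. The TPM of *COX3* over *COX1* was 0.606 to 0.651 in WT and 0.616 to 0.690 in LKO mice, which overlapped. *COX2* over *COX1* was 0.152, 0.166 and 0.165 in WT and 0.0834, 0.0679 and 0.115 in LKO mice, without overlap, so that *COX2* fell behind *COX1* in LKO mice. *CYTB* and *ATP6* over *COX1* overlapped between the genotypes. The TPM of *COX1* over that of its nuclear partner *Cox4i1* was 22.9 ± 2.18 in WT and 54.9 ± 7.73 in LKO mice (mean ± SD over 3 mice).

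The mitochondrial positions limit these comparisons. *ATP8* (MT 7766 to 7969) and *ATP6* (MT 7927 to 8607) share 43 bases, and *ATP6* shares its last base with *COX3* (MT 8607 to 9390). A nuclear copy, *Gm10925*, lies at chr1:24613971-24614651 and has the length of *ATP6*, 681 bases, so reads of *ATP6* may be split between the copies. The labels name a kit that selects mRNA and the methods a total RNA kit with removal of rRNA, and the summed share of the mitochondrial rRNA genes was 1.33% to 1.97% of counts in the WT and 1.03% to 2.65% in the LKO group, the highest in LKO mouse 3.

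Among the 11 assembly genes, 2 were called higher and 2 lower with TMM (19.6% and 20.5% of all genes), with a median of −0.03. With total counts 1 was higher and 7 lower (6.26% and 51.4% of all genes), with a median of −0.87. *Cox15* makes heme a for *COX1* and had the largest fall of the 60 members tested with TMM, at 27.1, 20.6 and 22.3 CPM in WT and 7.11, 7.23 and 5.67 in LKO mice (−1.81, SE 0.18, adjusted p = 3.3e-04). *Cox18*, which inserts *COX2* into the inner membrane, was at 6.00, 4.78 and 4.25 CPM in WT and 2.57, 2.06 and 1.38 in LKO mice (−1.32, SE 0.28, adjusted p = 0.0066). Both kept their call under the 6 scalings. *Cox16*, also needed for *COX2*, was at 22.7, 23.3 and 23.0 CPM in WT and 66.5, 90.4 and 62.8 in LKO mice and rose by 1.67 (SE 0.17, adjusted p = 3.7e-04) with TMM. It rose by 0.78 with total counts and by 0.30 on the log2(TPM + 1) scale (adjusted p = 0.0496), and the call was lost with a pseudocount of 0.1 (adjusted p = 0.0665). The groups did not overlap for any of the 3. *Entpd7* overlaps *Cox15*, and several genes overlap *Cox16*.

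*Cox17*, the copper chaperone of complex IV, rose by 0.56 (SE 0.14, adjusted p = 0.014) with TMM. This turned to −0.31 with total counts and to −0.16 with gene length offsets, and its adjusted p was 0.058 without WT mouse 2 and 0.062 without WT mouse 3. On the log2(TPM + 1) scale *Cox17* was called lower (−0.937, adjusted p = 0.0014). *Cox10*, which acts before *Cox15* in heme a synthesis, had a log2 fold change of −0.41 (adjusted p = 0.18). The other 6 (*Cox11*, *Cox14*, *Cox19*, *Uqcc1*, *Uqcc2* and *Uqcc3*) ranged from −0.41 to 0.63 and did not pass.

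Assembly factors with other names, a list of 30 genes, had 15 called higher and 5 lower with TMM (19.6% and 20.5% of all genes), with a median of 0.64. With total counts 5 were higher and 13 lower (6.26% and 51.4% of all genes). *Coa6*, a copper-handling factor of *COX2*, rose by 3.01 (adjusted p = 4.7e-04), from 11.2 to 18.7 CPM in WT to 73.9 to 176 in LKO mice. *Pet100* rose by 2.66 (adjusted p = 0.0021), and *Ndufa4*, now counted as a subunit of complex IV, by 1.98 (adjusted p = 3.8e-04). Of 22 regulators of mitochondrial biogenesis and gene expression, 7 were called higher and 6 lower with TMM (19.6% and 20.5% of all genes), with a median of 0.07. With total counts 3 were higher and 12 lower (6.26% and 51.4% of all genes). *Mterf2* rose by 3.06 (adjusted p = 3.1e-04) and *Slirp*, an RNA-binding partner of *Lrpprc* in mitochondria, by 1.74 (adjusted p = 4.8e-04). On the log2(TPM + 1) scale *Slirp* was not called (0.167, adjusted p = 0.235). *Lrpprc* itself was called lower with TMM (−0.455, adjusted p = 0.038). The others called lower were *Ppara*, *Twnk*, *Fastkd5*, *Tbrg4* and *Polrmt*, at −1.12 to −0.67. *Tfb1m* (1.59), *Mterf4* (0.83), *Tfb2m* (0.80) and *Mterf3* (0.65) were called higher with TMM. With total counts *Tfb1m* stood at 0.727, and *Mterf4*, *Tfb2m* and *Mterf3* turned to −0.045, −0.053 and −0.222. *Ppargc1a*, the fasting-induced coactivator of respiratory genes, was at 8.62, 9.40 and 6.79 CPM in WT and 18.9, 18.0 and 109.8 in LKO mice (2.57, SE 0.67, adjusted p = 0.017), with LKO mouse 3 far above the others. Without that mouse its log2 fold change was 1.16 (adjusted p = 0.00265). Its call was lost without WT mouse 1, 2 or 3 (adjusted p = 0.051 to 0.061) and with total counts (1.73, adjusted p = 0.054). *Nrf1*, *Gabpa*, *Esrra*, *Tfam* and *Ppargc1b* did not pass with TMM, at −0.24 to 0.61. *Esrra* was called higher with exactTest (adjusted p = 0.049), DESeq2 (0.038), upper-quartile scaling (0.039), protein-coding genes alone (0.038), gene length offsets (0.041) and the replicate block (0.034). *Tfam* was called higher with gene length offsets (0.048). On the log2(TPM + 1) scale *Esrra* (−0.845, adjusted p = 0.0225) and *Tfam* (−1.16, 4.1e-04) were called lower.

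Of 13 enzymes of the citric acid cycle outside complex II, 3 were called higher and 3 lower with TMM (19.6% and 20.5% of all genes), with a median of −0.20. With total counts 2 were higher and 9 lower (6.26% and 51.4% of all genes). *Fh1*, fumarase, which uses the product of complex II, rose by 2.25 (adjusted p = 3.2e-04), from 124 to 142 CPM in WT to 477 to 771 in LKO mice. *Cs*, citrate synthase, fell by 1.55 (adjusted p = 5.5e-04), from 58.1 to 90.7 CPM to 23.4 to 25.9. *Suclg2*, a subunit of the ligase that makes succinate, fell by 1.43 (adjusted p = 0.0013).

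Many members are short, and short genes as a whole were higher in LKO liver. The relative length (read count over FPKM and library total) had a median of 881 bases over the 54 nuclear members tested and 3506 over the other protein-coding genes. Of the 31 nuclear members under 1000 bases, 16 were called higher and 2 lower with a median of 0.60, and of 624 other protein-coding genes of that length 43.8% were called higher and 13.9% lower with a median of 0.59. From 1000 to under 2000 bases, 9 of 13 members were called higher with a median of 0.73, against 27.7% and a median of 0.08 for the other genes. At 2000 bases and over, 3 of 10 members were called higher with a median of 0.12, against 16.9% and −0.16. Spearman's rho between relative length and log2 fold change was −0.27 across the 54 members, which share libraries and are not independent. With gene length offsets, *Sdha* fell by 0.71 (adjusted p = 0.023), and *Uqcrh*, *Cycs*, *Cox7b* and *Atp5md* rose by 1.66, 2.03, 1.82 and 1.60.

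**Figure D5:**
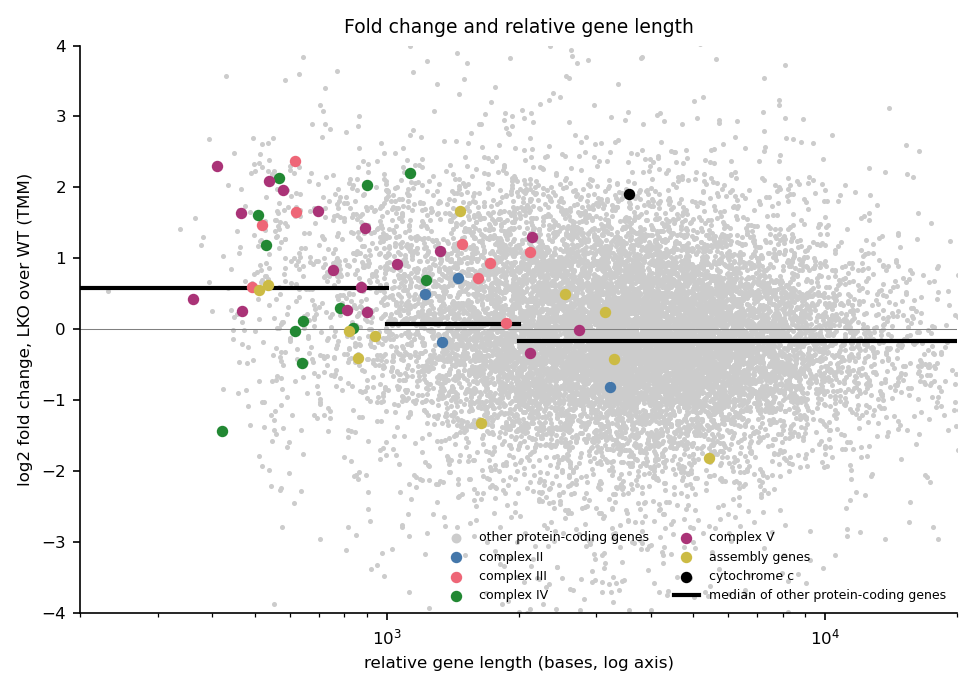
Log2 fold change (LKO over WT, TMM scaling) against relative gene length in bases on a log axis for the nuclear members (coloured by complex) over the other protein-coding genes (grey), with black bars for the median of the other genes under 1000 bases, from 1000 to under 2000 and from 2000 bases. The bars lie at 0.59, 0.08 and −0.16, and members of less than 1000 bases spread on both sides of the first bar. With total counts all values shift down with the median of all genes, which was −0.90, and 154 genes lie beyond the axes.

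Letters bound by known regulators of respiratory genes were found upstream of members called higher, called lower and not called. RefSeq windows from 250 bases before to 50 after the start site were at hand for 46 members, in 50 windows. GCGCANGCGC was found in 22.0% of the member windows and in 6.38% of the windows of all protein-coding genes, and CCGGAAG in 36.0% and 11.5%. TCAAGGTCA, the letters of an ERR site, was in 4.0% and 0.338%, and TATAAA in 5 of the 50 member windows and 12.6% of all windows. Both strands were searched, no motif contains another, and a match is a description of the window. The NRF1 letters were found for 5 of 21 members called higher, 4 of 18 not called and 2 of 4 called lower, and the ETS letters for 8 of 21, 7 of 18 and 2 of 4.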

How the data were processed

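RNA of 6 livers (3 WT, 3 LKO, fasted) was sequenced by the authors, and samples were grouped by the titles in their labels. Per the labels and the submitters' processing notes, reads were handled with bcl2fastq 2.20.0, FastQC 0.11.7, HISAT2 2.1.0, Bowtie2 2.3.4.1 and StringTie 2.1.3b on mm10. The methods describe 0.5 μg of RNA and a stranded total RNA kit, the labels 1 μg and a stranded mRNA kit. Neither says whether strand was used in counting. The authors deposited a table of 45777 genes with raw read counts, FPKM and TPM. FPKM were used for the relative gene length alone, and TPM, which the authors scaled to a common sum, for ratios within a mouse and for an alternative.

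Genes with at most 1 zero count among 6 mice were kept (18636), scaled by TMM and compared with the two-sided quasi-likelihood test of edgeR 4.0.16 (R 4.3.3), with genotype as the factor and Benjamini-Hochberg adjustment over all genes tested. Total counts were 45934632 to 59576437, and errors are SDs between mice or standard errors of the fit. The methods name littermates as controls, and no label says which mice shared a litter. Members and gene lists were chosen with earlier results of these data known. Named genes were *Pak4*, the Sdh genes, *Uqcrc1*, the mitochondrially encoded members, cytochrome c genes, isoform sets, the 3 largest rises and falls called in each class and, from each list, up to 3 called genes with preset regulators and *Cs*. Other members and listed genes are given by range or chosen after their values were seen. The pairs for ratios were not set in advance either. Alternatives were other scalings, filters and tests (DESeq2 1.42.0, exactTest, limma 3.58.1 on log2(TPM + 1) and log2(TPM + 0.1)), gene length offsets (lowess, span 0.3), the replicate block and leaving out each mouse. Each procedure was tested on counts simulated for 17493 genes, and the quasi-likelihood test called 8 unchanged genes. These counts had a smaller spread between mice than the data and neither their length trend nor their shift between scalings. The error rate in the data is thus not shown. Coordinates and upstream sequences are from RefSeq on GRCm38.p6, the assembly that mm10 represents.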

Additional observations from a re-analysis of the deposited data

How the results depend on the processing

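DESeq2, DESeq2 size factors, exactTest and the filters on low counts left the number of members called higher between 30 and 32 and the called members lower between 4 and 5. The members behind these numbers could change. With no filter on low counts, *Cox6b2* entered the test and was called lower (adjusted p = 9.3e-04), while *Cox6a1* was not called (0.0545). With upper-quartile scaling 3 members were called lower. With total counts 15 members were called higher and 21 lower, the nuclear median was −0.28 and the mitochondrial median −0.18. With total counts after small and ribosomal RNA genes had been left out, a setting added after the data had been seen, 20 were higher and 13 lower, with medians of −0.077 and 0.010. With limma on log2(TPM + 1) 9 were higher and 40 lower, with medians of −0.89 and −0.90, and with a pseudocount of 0.1 6 were higher and 40 lower, with medians of −0.96 and −0.91. With gene length offsets 28 were higher and 11 lower, with medians of 0.26 and 0.24. Leaving out each mouse in turn gave 27 to 34 members called higher and 2 to 4 called lower, a nuclear median of 0.52 to 0.79 and a mitochondrial median of 0.33 to 0.90.

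The deviations from the group means correlated at 0.037, −0.026 and −0.074 between same-numbered mice and at −0.063 to 0.077 between the others. Since each mean is over 3 mice only, such values cannot show whether mice shared a litter or a batch. With the replicate number as a block 30 members were called higher and 4 lower, and the call of *Cox6a1* was lost. With the replicate block and gene length offsets 21 were higher and 10 lower, with medians of 0.27 and 0.19, and the log2 fold changes that turned were −0.258 for *COX2*, −0.0717 for *ATP8*, −0.581 for *Cox4i1*, −0.293 for *Atp5g1*, −0.339 for *Atp5g3* and −0.163 for *Cox17*.

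Named genes whose log2 fold change turned sign with total counts were −0.392 for *Sdhb*, −0.142 for *Sdhd*, −0.759 for *Uqcrc1*, −0.24 for *CYTB*, −0.429 for *COX2*, −0.12 for *ATP6*, −0.306 for *ATP8*, −0.148 for *Cyc1*, −0.861 for *Cox4i1*, −0.177 for *Cox7a2l*, −0.616 for *Atp5g1*, −0.0401 for *Atp5g2*, −0.601 for *Atp5g3*, −0.306 for *Cox17*, −0.807 for *Ppargc1b*, −0.224 for *Esrra* and −0.586 for *Tfam*. Without small and ribosomal RNA genes they were −0.192 for *Sdhb*, −0.562 for *Uqcrc1*, −0.0514 for *CYTB*, −0.237 for *COX2*, −0.116 for *ATP8*, −0.662 for *Cox4i1*, −0.415 for *Atp5g1*, −0.402 for *Atp5g3*, −0.108 for *Cox17*, −0.616 for *Ppargc1b*, −0.0294 for *Esrra* and −0.385 for *Tfam*. With gene length offsets they were −0.19 for *COX2*, −0.0109 for *ATP8*, −0.583 for *Cox4i1*, −0.298 for *Atp5g1*, −0.343 for *Atp5g3*, −0.159 for *Cox17* and 0.0265 for *Nrf1*. With limma on log2(TPM + 1) they were −1.07 for *Sdhb*, −0.814 for *Sdhd*, −1.37 for *Uqcrc1*, −0.999 for *CYTB*, −0.272 for *COX1*, −1.17 for *COX2*, −0.209 for *COX3*, −0.808 for *ATP6*, −1.04 for *ATP8*, −0.723 for *Cyc1*, −1.52 for *Cox4i1*, −0.358 for *Cox6b1*, −0.851 for *Cox7a2l*, −1.28 for *Atp5g1*, −0.694 for *Atp5g2*, −1.27 for *Atp5g3*, −0.125 for *Uqcr10*, −0.937 for *Cox17*, −0.765 for *Ppargc1b*, −0.845 for *Esrra* and −1.16 for *Tfam*. With a pseudocount of 0.1 they were −1.07 for *Sdhb*, −0.818 for *Sdhd*, −1.39 for *Uqcrc1*, −1.0 for *CYTB*, −0.272 for *COX1*, −1.17 for *COX2*, −0.209 for *COX3*, −0.809 for *ATP6*, −1.05 for *ATP8*, −0.738 for *Cyc1*, −1.53 for *Cox4i1*, −0.359 for *Cox6b1*, −0.858 for *Cox7a2l*, −1.29 for *Atp5g1*, −0.699 for *Atp5g2*, −1.27 for *Atp5g3*, −0.125 for *Uqcr10*, −0.964 for *Cox17*, −1.38 for *Ppargc1b*, −0.974 for *Esrra* and −1.26 for *Tfam*. *Cox8a*, near 0, stood at 2.83e-04 with DESeq2 size factors, 2.40e-04 with DESeq2, 0.0578 with upper-quartile scaling, 0.00348 with filterByExpr and 0.0357 with protein-coding genes alone. Leaving out each mouse in turn, the range was −0.43 to 0.10 for *Sdhc*, −0.18 to 0.35 for *Uqcrc1*, −0.10 to 0.12 for *Cox4i1*, −0.14 to 0.060 for *Cox8a*, −0.40 to 0.41 for *Ppargc1b* and −0.35 to 0.10 for *Nrf1*. Except by the settings' own construction, the cause of these changes was not tested.

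With 3 mice a genotype, a simulated log2 fold change of 1 was recovered for 62 of 100 genes and of 2 for 98 of 100. The simulated spread between mice was fixed and smaller than in the data, where the common coefficient of variation was 0.254. Rises and falls were balanced and set for few genes, with no length trend and no shift between scalings. Recovery in these libraries may therefore be lower. A member that did not pass is not shown to be equal between the genotypes. Transcript levels do not give protein, complex or respiration, and nothing here separates hepatocytes from other liver cells.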

Other observations

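Pseudogenes named for members were not part of the comparison, and their counts were looked at after the values of the members had been seen. The table holds 11 of them, of which 5 were tested, 3 called higher and 1 lower (edgeR's quasi-likelihood test, TMM scaling, with 19.6% and 20.5% of all genes). *Atp5l2-ps* had 291, 241 and 270 counts in WT and 617, 814 and 615 in LKO mice, and *Atp5l-ps2* had 14, 16 and 16 in WT and 62, 62 and 43 in LKO mice. Both moved the way of *Atp5l*, whose counts were 5532 to 7521 in WT and 13719 to 17758 in LKO mice. *LOC100534390*, a pseudogene of *Atp5b*, had 109, 77 and 85 counts in WT and 28, 13 and 14 in LKO mice, while *Atp5b* had 41682 to 66297 and 23211 to 27284. Reads can be shared between such copies and their parent genes, and the counts do not show which copy they came from.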
